A study of Mus musculus with 8 samples.

Results

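The genes described here encode the cytosolic ribosomal proteins, in hearts of mice given doxorubicin (DOX, an anthracycline cancer drug that harms heart muscle) or saline. They were defined by gene name, with earlier results of these data known. The rule took every probe set whose platform annotation gives 1 gene symbol of a set form. The symbol starts with Rpl or Rps and a digit, or is Rplp0, Rplp1, Rplp2 or Rpsa, leaving out the S6 kinases (Rps6k). That gave 107 probe sets of the 45101 in the table, for 51 of the 18193 gene symbols that have such a probe set. Of these, 90 probe sets and 47 genes passed a filter on low signal and were tested among 13008 genes. The tested genes were 20 proteins of the small subunit, 20 of the large subunit, 6 paralogs (Rpl3l, Rpl22l1, Rps27l, Rpl39l, Rpl7l1 and Rps4l) and Rps19bp1. The naming rule takes in Rps19bp1 although it encodes a partner of Rps19 and no ribosomal protein. Rps4l, counted here with the paralogs, is annotated in RefSeq as a transcribed pseudogene. Rpl12, Rpl14, Rps16 and Rps15a-ps6, also a pseudogene, are the 4 members without a tested probe set. Their normalized signals lay between log2 4.65 and 6.52, below the array median of 6.62 on every array. A further 110 probe sets carry several symbols, at least 1 of them ribosomal, and are not members.

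A ribosome is built from ribosomal RNA and one copy of nearly every ribosomal protein, so the cell has to make these proteins in matched amounts. Their mRNAs are among the most abundant in any tissue. They start with a run of pyrimidines right after the cap, the terminal oligopyrimidine or TOP motif, through which the kinase mTOR and the RNA-binding protein Larp1 set how much of each mRNA is translated or stored. A few ribosomal proteins have a second, closely related gene used in particular tissues. The best known in the heart is Rpl3l, which striated muscle uses after birth in place of Rpl3. Unassembled ribosomal proteins such as Rpl11 can bind Mdm2 and so release p53, which links the ribosome to the response to drugs that damage DNA.

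RNA from whole hearts was measured on 8 one-colour Affymetrix arrays, in 4 groups of 2 biological replicates. The mice were males of 6 to 8 weeks. They were either wild type (MT+/+) or labelled null for metallothioneins I and II, small metal-binding proteins (MT-/-). Each animal received DOX at 15 mg/kg, injected once into the peritoneal cavity, or the same volume of saline, and the heart was collected on day 4. The sources used here do not give the type of null allele, the strain, or whether an array holds RNA of 1 heart or of several. Both genotypes were measured under both treatments. The question put by this design is how DOX changes the heart in either genotype and whether the genotype alters that change.

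The targeted genes gave signal on all arrays. The deposited intensity of the brighter Mt1 probe set was 3722 to 9285 on the MT+/+ arrays and 4667 to 12850 on the arrays labelled MT-/-, and Mt2 gave 452 to 2732 and 968 to 2218. Neither was called lower in MT-/-, and this Mt1 probe set was called higher there, against the label (log2 +0.50 averaged over treatments, adjusted p 0.0425). The genotypes are therefore named by their labels only, also where a direction between them is given. The labelled tissue was checked against its markers: all 10 heart muscle markers were tested, and genes such as Tnnt2 and Actc1 had mean signals of log2 13.9. The small number of arrays limits the precision of every value below.

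Most member genes that could be matched to promoter sequence carry a pyrimidine run near the annotated start. RefSeq promoter sequence (assembly GRCm38.p6, 250 bases before to 50 after each annotated start) was matched for 44 of the 51 members. Within 40 bases on either side of the start, the longest run made only of C and T had a median of 9.5 bases in the members and 6 bases over 27025 genes. A run of at least 8 bases was present in 33 of the 44 members (75%) and in 32.6% of all genes. Shown here are 60 bases before and 30 from the start for 4 members that rose after DOX and for Rpl3l, which fell, with the longest pyrimidine run within the printed bases in capitals. All lie on the plus strand, and the positions are chr7:3703981-3704070 for Rps9, chr17:28328505-28328594 for Rpl10a, chr9:64173327-64173416 for Rpl4, chr3:28805448-28805537 for Rpl22l1 and chr17:24727766-24727855 for Rpl3l.
Rps9: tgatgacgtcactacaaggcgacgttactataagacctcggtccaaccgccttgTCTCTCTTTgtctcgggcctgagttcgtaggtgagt
Rpl10a: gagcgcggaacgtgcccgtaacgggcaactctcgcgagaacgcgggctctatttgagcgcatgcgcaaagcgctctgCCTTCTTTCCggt
Rpl4: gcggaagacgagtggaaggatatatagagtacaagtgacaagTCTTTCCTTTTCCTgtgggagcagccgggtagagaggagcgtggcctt
Rpl22l1: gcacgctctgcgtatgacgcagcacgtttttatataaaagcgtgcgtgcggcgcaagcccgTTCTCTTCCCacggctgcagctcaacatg
Rpl3l: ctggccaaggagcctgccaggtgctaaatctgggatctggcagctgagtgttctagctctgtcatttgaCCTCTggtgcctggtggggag
The printed runs are 9 bases long in Rps9, 10 in Rpl10a, 14 in Rpl4, 10 in Rpl22l1 and 5 in Rpl3l. Rpl10a and Rpl3l have 2 annotated starts each, of which 1 is shown. Over the full 40 bases on either side of its starts Rpl3l has a run of 9, as long as that of Rps9, and is among the 33 members with a run of at least 8. The annotated start may differ from the start used in the heart, so a run is a match in this window and not a mapped TOP motif.

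Other short motifs were searched on both strands over the whole window, and some of these motifs can overlap each other. The core motif of ETS factors, CCGGAAG, was present in 47.7% of the 44 members and in 9.93% of all genes. The sequence CTCGCGAG, the core of a palindrome that ZBTB33 can bind, was present in 13.6% of members against 1.04%, and AAGATGGCG, a motif of YY1, in 6.82% against 1.64%. The TATA box TATAAA stood in 13.6% of members and 15.7% of all genes, and the E-box CACGTG, a site type of Myc, in 9.09% and 8.09%. Members and other genes thus had similar shares for the last 2 motifs in this window.

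After DOX, averaged over both genotypes, most ribosomal protein genes shifted slightly upward, and a few moved further. Rps9, the paralog Rpl22l1 and Rpl10a rose by 1.37-fold, 1.36-fold and 1.22-fold, while the muscle paralog Rpl3l fell by 1.51-fold. Of the 47 tested members, 8 were higher and 1 was lower past adjusted p 0.05 (limma, with Benjamini-Hochberg adjustment over all tested probe sets), where 6.98% of all genes were higher and 7.81% lower. The change was above 0 in 37 of the 47 members (78.7%), against 47.9% of all genes. The median change was log2 +0.11 in members and -0.01 over all genes. All 4 DOX arrays lay above all 4 saline arrays for 11 members and below them for 2, where 9.92% of all genes lay above and 10.1% below. Both the 8 and the 11 include Rps27, whose rise is tied to the filter on low signal as described below. In whole hearts, fewer cells of a type and less RNA per cell cannot be told apart.

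**Figure D1:**
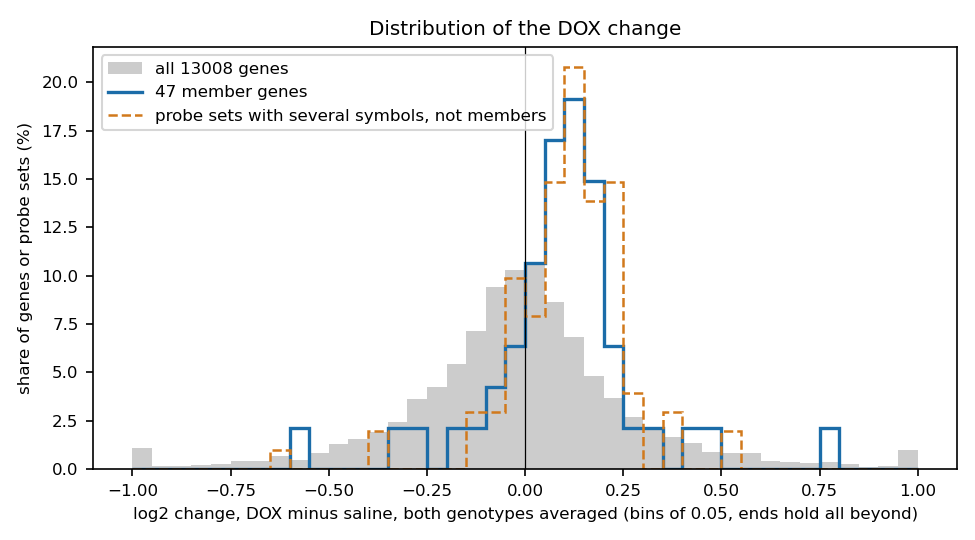
Distribution of the log2 change after DOX, averaged over both genotypes, as the share of genes or probe sets (%) in bins of 0.05. The 47 tested member genes (blue line) and the tested ribosomal probe sets with several symbols (dashed orange line) sit to the right of all 13008 genes (grey), with medians of 0.11, 0.12 and -0.01.

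Of 20 small subunit genes 3 rose and 0 fell, with a median of log2 +0.11, and of 20 large subunit genes 4 rose and 0 fell, with a median of +0.13. Of the 3 small subunit genes that rose, 1 is Rps27, whose rise is tied to the filter on low signal as described below, and the subunits were not tested against each other. At an unadjusted p under 0.05 there were 18 members, 16 of them higher, and 28.8% of all genes in either direction. Over all 90 tested probe sets of the members, 11 were higher and 2 lower, with a median of +0.10, where 7.03% of all tested probe sets were higher and 6.84% lower. The 101 tested probe sets with several symbols, which the rule leaves out, gave 21 higher and 2 lower, with a median of +0.12. Fau, which encodes a small subunit protein fused to a ubiquitin-like part and falls outside the naming rule, rose by log2 0.20 ± 0.05 (adjusted p 0.0268).

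Rps9 encodes a small subunit protein near the decoding site, where codons are read. It gave normalized signals of log2 11.98 and 11.81 on the saline arrays of MT+/+ and 12.45 and 12.24 on its DOX arrays. In MT-/- the saline arrays read 12.06 and 12.02 and the DOX arrays 12.52 and 12.48. Every DOX array lay above every saline array, in both genotypes. The averaged rise was log2 0.45 ± 0.07 (standard error of the limma fit, 8 arrays; adjusted p 0.0042). A second Rps9 probe set had +0.22 (adjusted p 0.436) and overlapped between the treatments. It read 11.89 and 11.54 under DOX in MT+/+ and 11.94 and 11.20 in MT-/-, against 11.23 to 11.59 on the saline arrays. With the mean of both probe sets the call was lost (+0.34, adjusted p 0.0617). The brighter probe set carries the suffix s and the dimmer one x, which marks probes that can match other sequences. The only Rps9 probe set with neither suffix read 5.94 to 6.32 and was not tested. The fits without these suffixes therefore did not cover Rps9.

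Rpl10a lies at the stalk of the large subunit where spent transfer RNA leaves. On the MT+/+ arrays its signals were log2 12.37 and 12.40 under saline, then 12.62 and 12.66 under DOX. On the MT-/- arrays they were 12.45 and 12.47, then 12.77 and 12.78. Replicates differed by at most a few hundredths, and the groups under DOX and saline did not overlap. The rise was log2 0.28 ± 0.05 (adjusted p 0.0065).

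Rpl37a, a small zinc-binding protein of the large subunit, read log2 13.07 and 13.04 under saline and 13.33 and 13.32 after DOX on the MT+/+ arrays. The MT-/- arrays read 13.24 and 13.17, then 13.42 and 13.34. All DOX arrays were higher, with the MT-/- saline arrays closest to them. The rise was log2 0.22 ± 0.04 (1.17-fold, adjusted p 0.0107), and its other probe set had +0.18 (adjusted p 0.0433). It missed the threshold when MT-/- saline 2 was left out (adjusted p 0.0512) or when the fit had no mean-variance trend (0.101).

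Rpl4, whose long loop lines the tunnel through which the new protein leaves, rose by log2 0.19 ± 0.05 (adjusted p 0.0382). Its signals were 12.79 to 12.92 on the saline arrays and 12.95 to 13.18 on the DOX arrays. Rpl7, a large subunit protein, rose by 0.20 ± 0.06 (adjusted p 0.0466), from 12.06 to 12.17 under saline to 12.26 to 12.38 under DOX. Rps15, at the head of the small subunit, rose by 0.19 ± 0.05 (adjusted p 0.0447), from 12.58 to 12.77 under saline to 12.81 to 12.93 under DOX. In all 3 genes the DOX and saline arrays did not overlap, but each call was near the threshold. Each was lost when any 1 array other than MT-/- DOX 2 was left out (adjusted p 0.066 to 0.160), without the filter on low signal (0.0771 to 0.0901) and without the mean-variance trend (0.135 to 0.171). Rpl7 and Rps15 also missed the threshold under the deposited scaling (0.0732 and 0.0620), median centring (0.0601 and 0.0586) and the mean of probe sets (0.0613 and 0.0552), and Rpl7 without probe sets of suffix x or s (0.112).

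Rps27, a zinc-finger protein of the small subunit, has the largest change of all tested members and the weakest basis. Its only tested probe set read log2 6.17, 6.01, 5.92 and 6.31 under saline, below the array median of 6.62, and 6.94, 6.69, 6.68 and 7.12 under DOX, above it. It therefore passed the filter on low signal through its DOX arrays alone, as the 1 member of which this is true, and a gene that passes in this way had to differ. Its change of log2 0.76 ± 0.14 (adjusted p 0.0087) is given as a value and supports nothing here. Without it, 7 members were called higher.

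**Figure D2:**
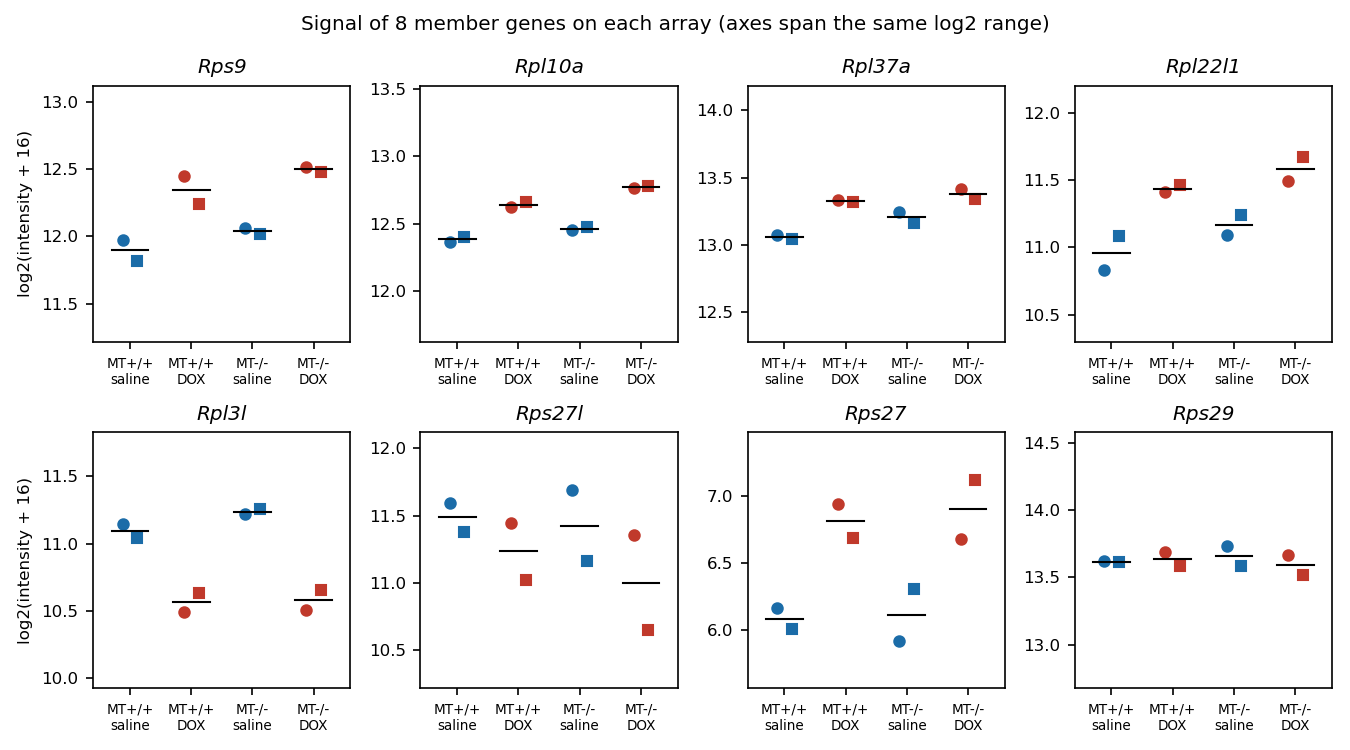
Normalized signal, log2(intensity + 16), of 8 member genes on each of the 8 arrays, with circles for replicate 1, squares for replicate 2, blue for saline, red for DOX and a bar at each group's mean. Rps9, Rpl10a, Rpl37a, Rpl22l1 and Rps27 lie higher and Rpl3l lower on all 4 DOX arrays, while the DOX and saline arrays overlap for Rps27l and Rps29.

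The paralogs moved apart from each other. Of the 6, Rpl22l1 rose, Rpl3l fell and 4 did not pass, with a median of log2 -0.11. Rpl3l is made almost only in heart and skeletal muscle. Under saline its signals were log2 11.14 and 11.04 in MT+/+ and 11.22 and 11.26 in MT-/-. Under DOX they were 10.49 and 10.63, and 10.51 and 10.66. The groups did not overlap in either genotype. Rpl3l fell by 0.59 on the log2 scale, with a standard error of 0.08 (adjusted p 0.0028), and it passed with each of the 8 arrays left out in turn. No probe set names Rpl3 alone, so the change of its partner was not analysed here.

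Rpl22l1 can stand in for Rpl22, an RNA-binding large subunit protein that restrains it. Under saline its signals were log2 10.83 and 11.09 in MT+/+ and 11.09 and 11.24 in MT-/-, and under DOX 11.41 and 11.46, and 11.49 and 11.67. The DOX arrays were all higher, although the saline replicates of MT+/+ differed by more than those of the other groups. The rise was log2 0.45 ± 0.09 (adjusted p 0.0127), which missed the threshold when MT-/- saline 1 was left out (adjusted p 0.0590). Its partner Rpl22 had +0.01 ± 0.05 (adjusted p 0.956). The signals of Rpl22 stayed between 12.69 and 12.81 on all arrays, while another, dimmer Rpl22 probe set rose by 0.47 (adjusted p 0.0147), from 8.76 to 9.12 under saline to 9.23 to 9.66 under DOX. The changes of the 3 tested Rpl22 probe sets thus ran from +0.01 to +0.47. Both of those quoted carry the suffix s, and the other, with neither x nor s, read 11.78 to 12.16. Over the alternative settings that left no array out, the change of Rpl22 was +0.01 to +0.18, with 0 calls.

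Rps27l, a paralog of Rps27 that p53 can switch on, had signals of log2 11.60 and 11.38 on the saline arrays of MT+/+ and 11.45 and 11.03 on its DOX arrays. In MT-/- they were 11.69 and 11.16, then 11.36 and 10.65. Replicates within a group lay far apart, and DOX and saline overlapped. The change was -0.34 ± 0.18 (95% interval -0.75 to 0.08, adjusted p 0.283). With the replicate number as a block it passed (adjusted p 0.0139).

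Of the other paralogs, Rpl7l1, a nucleolar protein of large subunit assembly, had -0.15 ± 0.12 (adjusted p 0.469), but a dimmer probe set of it fell by 0.64 (adjusted p 0.0186), from 8.38 to 8.56 under saline to 7.50 to 8.14 under DOX. Rps4l, annotated as a transcribed pseudogene, had -0.07 ± 0.12 (adjusted p 0.801). Rpl39l, known from the testis, had 0.00 ± 0.09 (adjusted p 0.997), and its related gene Rpl39 had -0.10 ± 0.14 (adjusted p 0.731). Rps19bp1, the member that is no ribosomal protein, lay lower on all 4 DOX arrays (7.24 to 7.38 against 7.44 to 7.69), with -0.25 ± 0.08 (adjusted p 0.0635, or 0.0222 with the replicate block).

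**Figure D3:**
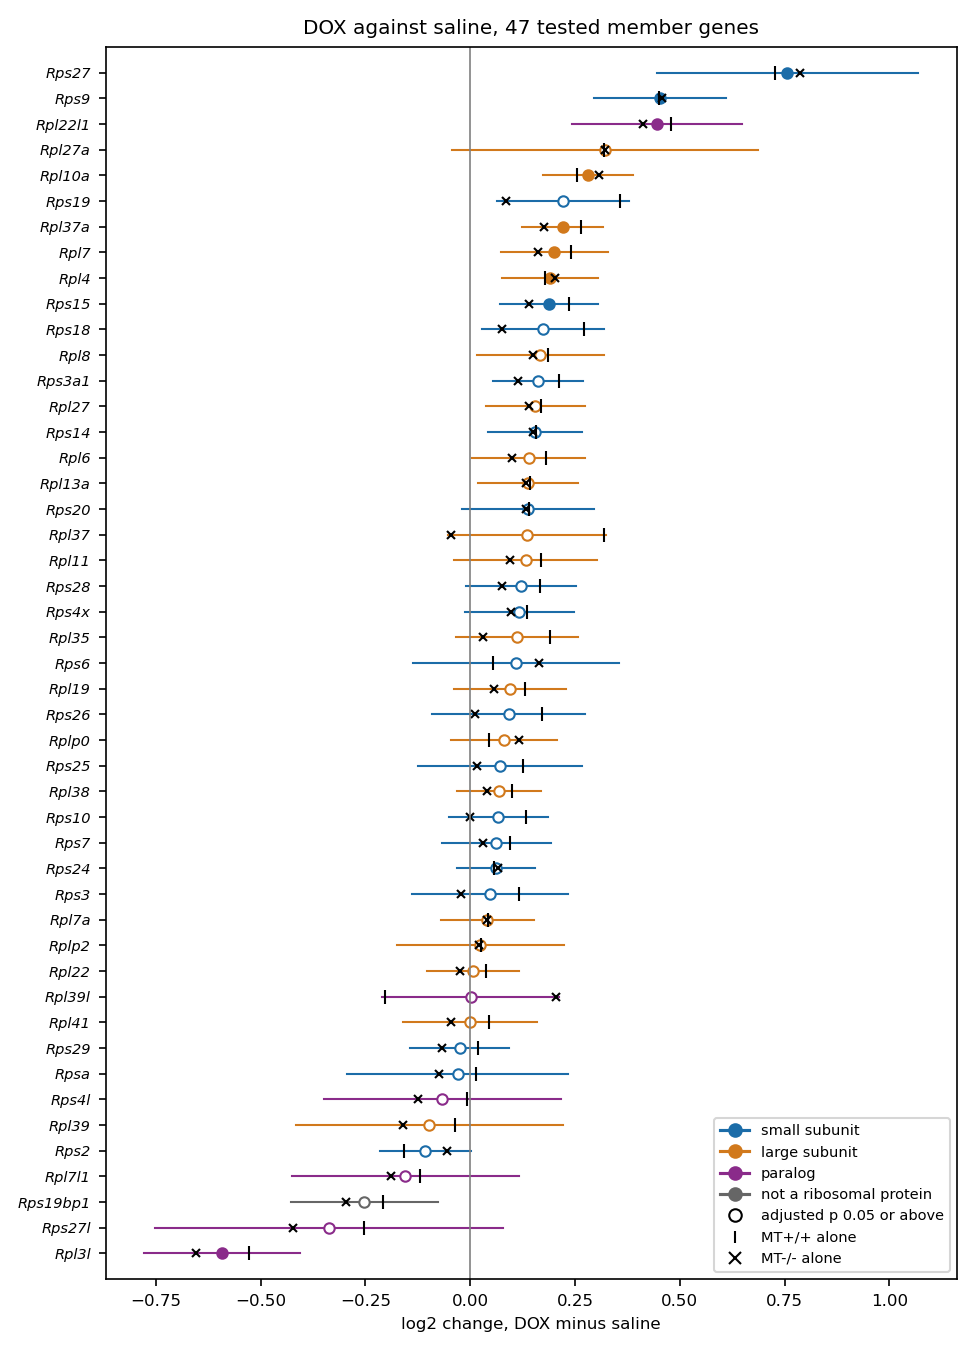
Log2 change after DOX for each of the 47 tested member genes, with the averaged change as a dot with its 95% confidence interval (filled where adjusted p is below 0.05), the change in MT+/+ alone as a bar mark and that in MT-/- alone as a cross. Most dots lie slightly to the right of 0, with Rps27 at 0.76 and Rpl3l at -0.59 as the extremes.

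The tested genes of the lists of stalk and Mdm2-binding proteins did not pass for DOX, nor did Rps6 and Rpl13a. Rpl11 and Rps7, which can bind Mdm2, had +0.13 ± 0.08 (adjusted p 0.309) and +0.06 ± 0.06 (adjusted p 0.557). The stalk proteins Rplp0 and Rplp2, which draw elongation factors to the ribosome, had +0.08 ± 0.06 (adjusted p 0.413) and +0.02 ± 0.09 (adjusted p 0.905). Rps6, the substrate of the S6 kinases, had +0.11 ± 0.11 (adjusted p 0.587). Rpl13a, which can leave the ribosome to silence inflammatory mRNAs, had +0.14 ± 0.05 (adjusted p 0.125, or 0.0301 with the block), and 1 of its 4 tested probe sets, a dimmer one, had -0.24 (adjusted p 0.215).

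Several members came close to the threshold. Rps3a1, a small subunit protein, had +0.16 ± 0.05 (adjusted p 0.0534) and did not overlap between DOX (13.11 to 13.25) and saline (12.93 to 13.09). Rps19, mutated in the inherited anaemia of Diamond and Blackfan, had +0.22 ± 0.07 (adjusted p 0.0682). Rps14 (+0.15, adjusted p 0.0748) and Rpl27 (+0.16, adjusted p 0.0833) followed, both without overlap. With the replicate number as a block, 20 members passed, 17 higher and 3 lower, where 13.6% of all genes were higher and 14.8% lower. The 9 members called without the block kept their call, Rps27 with its tie to the filter among them. The others were Rpl6, Rpl13a, Rpl27, Rpl27a, Rps3a1, Rps14, Rps18, Rps19 and Rps20, which were higher, and Rps27l and Rps19bp1, which were lower. The tested Rpl27a probe set is dim for a ribosomal protein, at log2 7.59 to 8.51.

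Bright members stayed close together. Of the 34 members with a mean signal of at least log2 12, 6 were higher and 0 lower after DOX, and the changes ran from -0.11 (Rps2) to +0.45 (Rps9) around a median of +0.12. The 212 other genes with such signals included 27 higher and 56 lower, with a median of -0.07. Rps29 read 13.52 to 13.73 on all arrays and had -0.02 ± 0.05 (adjusted p 0.828). Of the 13 dimmer members, 2 were higher and 1 lower, with a median of 0.00. The 2 include Rps27, whose rise is tied to the filter on low signal. Bright probe sets near the top of the scale, which ended at log2 14.3, can understate a change.

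**Figure D4:**
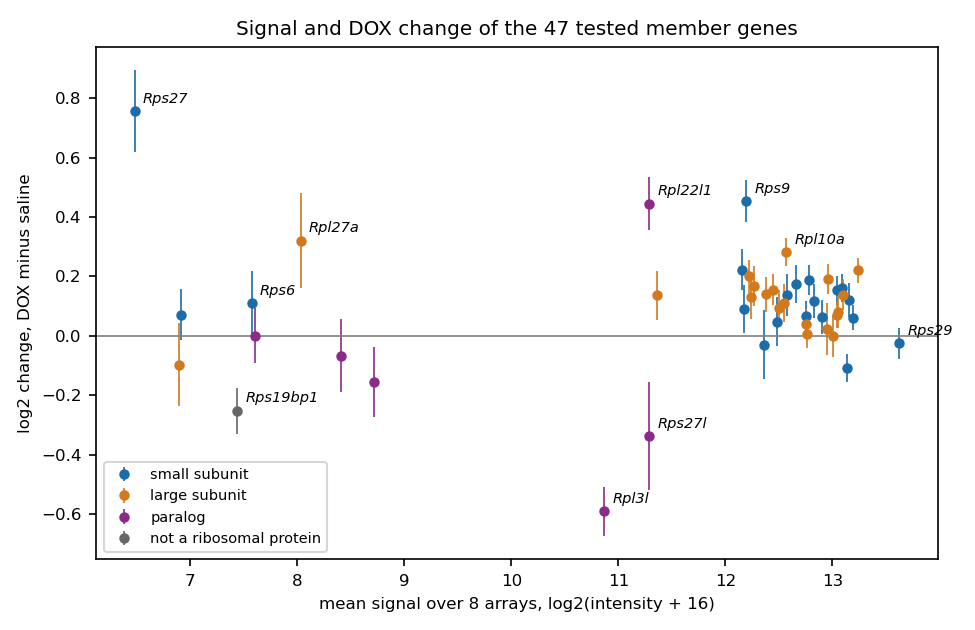
Averaged log2 change after DOX (vertical axis, bars are standard errors of the limma fit) against the mean signal over 8 arrays (horizontal axis, log2(intensity + 16)) for the 47 tested member genes, coloured by class. The 34 members at or above log2 12 lie between -0.11 and 0.45, and the dimmer ones spread from -0.59 to 0.76.

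Probe sets of 1 gene mostly shared their direction. Of 21 members with more than 1 tested probe set, 12 had all of them above 0 after DOX, 2 (Rpl7l1 and Rps27l) all below 0, and 7 had both signs. Ribosomal protein genes have many pseudogene copies, and 40 of the 107 member probe sets carry the suffix x, which marks probes that can match other sequences. Without the suffixes x and s, 39 members could be tested, of which 6 were higher and 1 lower, with a median of +0.11. The kinds of tested probe set differed in their change. Medians were +0.14 for 27 with the suffix a, +0.11 for 37 with x and +0.45 for 3 with s. The 23 with none of these suffixes had a median of 0.00, with 12 above 0. Of these 23, 2 were called higher (Rps27 among them) and 2 lower.

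In MT+/+ hearts alone the members had a median change of log2 +0.14 after DOX, against -0.02 over all genes, and 39 of 47 were above 0. With limma 0 members passed adjusted p 0.05, where 1.24% of all genes were higher and 1.45% lower. At an unadjusted p under 0.05 there were 15 members, 13 higher and 2 lower, and 17.3% of all genes in either direction. The nearest were Rps9 (+0.45, adjusted p 0.0536), Rpl3l (-0.53, adjusted p 0.0542) and Rpl37a (+0.27, adjusted p 0.0595). With the replicate block 10 members passed, 9 higher and 1 lower, where 6.18% of all genes were higher and 5.62% lower. These were Rps9 (adjusted p 0.0058), Rpl22l1 (0.0094), Rpl37a (0.0096), Rps19 (0.0123), Rpl10a (0.0223), Rps27 (0.0314), Rps18 (0.0361), Rps3a1 (0.0442), Rps15 (0.0461) and, lower, Rpl3l (0.0107). Rps27 is counted here although its rise is tied to the filter on low signal. When MT-/- DOX 1 or MT-/- DOX 2 was left out, Rpl3l and Rpl37a passed.

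In MT-/- hearts alone the median change was log2 +0.08, against 0.00 over all genes, and 33 of 47 were above 0. Rps9 rose (+0.46, adjusted p 0.0307), Rpl10a rose (+0.31, adjusted p 0.0328) and Rpl3l fell (-0.65, adjusted p 0.0147), so that 2 members were higher and 1 lower where 2.76% of all genes were higher and 3.98% lower. Rps27 had +0.79 (adjusted p 0.0501). With the block 8 passed, 6 higher and 2 lower, where 7.98% of all genes were higher and 9.82% lower. The added ones were Rpl22l1 (adjusted p 0.0116), Rps27 (0.0168), Rpl4 (0.0327), Rpl37a (0.0354) and, lower, Rps27l (0.0345). Here too, the rise of Rps27 is tied to the filter on low signal. The MT-/- calls rest on few arrays: without MT-/- saline 1 or MT-/- saline 2 none of the 3 was kept, and without MT-/- DOX 1 or MT-/- DOX 2 only Rpl3l was. Rps9 also missed the threshold without the trend (adjusted p 0.0708) and with the mean of its probe sets (+0.27, adjusted p 0.336). The call of Rpl10a was lost whichever array was left out (adjusted p 0.0530 to 0.211), under the deposited scaling (0.0503), median centring (0.0636), no filter (0.0681) or no trend (0.140), and when the fit held no arrays of the other genotype (0.0936). The median in MT-/- was +0.02, with 25 of 47 members above 0, without MT-/- DOX 1, and +0.14, with 40 above 0, without MT-/- DOX 2.

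The test of the difference between the genotypes' DOX changes found no member. By limma 0 of 47 members passed for the interaction, as did 0% of all genes, and 0 members had an unadjusted p under 0.05, against 2.5% of all genes. The median difference was -0.07 in members, with MT-/- the smaller, and -0.002 over all genes. In members it was -0.01 without MT-/- DOX 2. Under the deposited scaling the medians were -0.066 in members and -0.033 over all genes, and with median centring -0.082 and -0.049. The smallest p-values were those of Rpl39l (+0.41 ± 0.18, unadjusted p 0.0558), Rpl37 (-0.36 ± 0.17, unadjusted p 0.0570) and Rps19 (-0.27 ± 0.14, unadjusted p 0.0819), all with adjusted p 1. Rpl37, a zinc-binding large subunit protein, had +0.32 after DOX in MT+/+ and -0.05 in MT-/-. With 2 arrays in each group, a difference that misses the threshold does not show that the genotypes respond alike.

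Between genotypes, averaged over treatments, the members had a median of log2 +0.06 in MT-/- against MT+/+, and -0.01 over all genes. It was +0.02 without MT-/- DOX 1 and +0.10 without MT-/- DOX 2. With limma 0 members passed, where 0.884% of all genes did. At an unadjusted p under 0.05 there were 5 members and 13.2% of all genes. The nearest was Rps6, with -0.48 ± 0.11 (adjusted p 0.101, or 0.0268 with the replicate block, under which it was the 1 member called and 4.91% of all genes were). The signals of Rps6 were log2 7.63, 7.94, 7.71 and 7.97 on the MT+/+ arrays and 7.35, 7.14, 7.44 and 7.38 on the MT-/- arrays, without overlap. This Rps6 probe set is dim for a ribosomal protein, at percentile 74.2 of the mean signals of all probe sets. Rpl7a read higher on all 4 MT-/- arrays (12.80 to 12.89 against 12.66 to 12.75), with +0.14 (adjusted p 0.291), and Rpl8 had +0.22 (adjusted p 0.228). Those 2 non-overlapping members, 1 above and 1 below, stand beside 2.56% and 3.31% of all genes.

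Under saline 0 members differed between genotypes by limma, where 0.177% of all genes did, and 6 members had an unadjusted p under 0.05, where 8.65% of all genes did. The median was +0.09 (0.00 over all genes) and 41 of 47 members were above 0, with Rps6 (-0.54, adjusted p 0.402), Rpl39l (-0.35, 0.522) and Rpl8 (+0.23, 0.552) nearest. Under DOX 0 members differed, where 0.292% of all genes did, and 1 member had an unadjusted p under 0.05, where 7.72% of all genes did. The median was +0.02 (0.00 over all genes), but -0.02 without MT-/- DOX 1 and +0.07 without MT-/- DOX 2, so 1 array decides its direction. Nearest the threshold were Rps6 (-0.43, 0.515), Rpl8 (+0.20, 0.704) and Rpl7a (+0.14, 0.742). These comparisons share arrays with the DOX comparisons above.

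Genes around the ribosome moved in part with the members. Of 17 tested mRNAs known to carry a TOP motif without encoding a ribosomal protein, mostly translation factors, 7 rose and 1 fell after DOX, with a median of log2 +0.23. The elongation factor gene Eef2 (+0.43, adjusted p 0.0023), the initiation factor gene Eif3e (+0.49, 0.0072) and Btf3, which guides new peptide chains (+0.35, 0.0270), rose. Vim, the intermediate filament gene of fibroblasts and vessels, was the one that fell (-1.09, adjusted p 2.1e-04). Of 28 ribosome biogenesis genes 6 rose and 0 fell, with a median of +0.14. They included the nucleolar genes Ncl (+0.74, adjusted p 0.0030), Pes1 (+0.55, 0.0126), Nhp2 (+0.48, 0.0147) and Gnl3 (+0.60, 0.0178).

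Of 19 genes that control TOP mRNA translation, 4 rose and 0 fell, with a median of +0.14. These were Eif4ebp1, which blocks cap-dependent translation when mTOR is off (+1.27, adjusted p 2.7e-04), the mTOR inhibitors Ddit4 (+1.11, 0.0018) and Sesn1 (+1.27, 0.0040), and Myc, which drives ribosome production (+0.43, 0.0072). Of 6 genes of the path from the ribosome to p53, Cdkn1a (+1.37, 0.0039) and Perp (+0.90, 6.5e-04) rose and Ccng1 fell (-0.72, 0.0025), all 3 of them p53 targets. Mdm2, which degrades p53, had -0.14 (0.526). The arrays measure mRNA, so how much of it was translated was not analysed here.

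**Figure D5:**
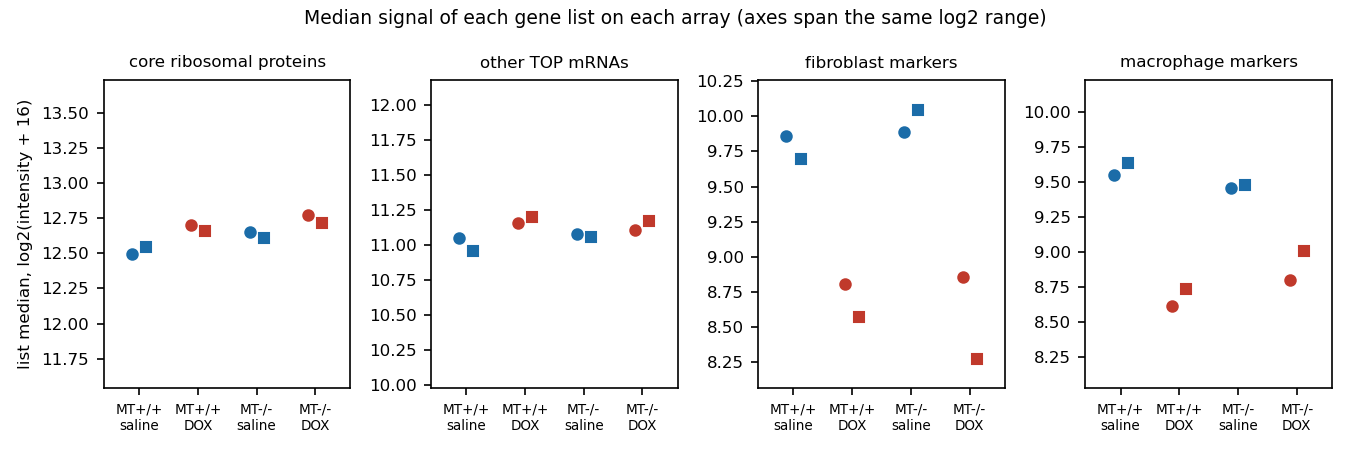
Median normalized signal, log2(intensity + 16), on each array for 40 core ribosomal protein genes, 17 other TOP mRNAs, 12 fibroblast markers and 12 macrophage markers, with circles for replicate 1, squares for replicate 2, blue for saline and red for DOX. The core members' medians are 12.50 to 12.66 under saline and 12.66 to 12.78 under DOX, while the fibroblast medians are 9.69 to 10.05 and 8.27 to 8.85.

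Markers of several heart cell types moved with DOX as well. Of 12 fibroblast markers 8 fell and 0 rose (median log2 -1.34), and their summed intensity was 24511 to 30409 under saline and 16932 to 19386 under DOX. All 12 macrophage markers fell (median -0.71), with sums of 10641 to 13166 and 5616 to 7275. Of 10 endothelial markers 3 fell, of 10 heart muscle markers 4 fell (median -0.06) and of 5 red cell markers 2 fell. Of 8 neutrophil markers 3 rose on average. Taken by genotype, 3 neutrophil markers rose in MT-/- and 0 passed in MT+/+, and 0 passed for the interaction. Of 2 lymphocyte markers 0 passed in either direction (0 at an unadjusted p under 0.05, limma). The tested member probe sets made up 3.29% to 3.59% of the total quantile-normalized intensity under saline and 3.50% to 3.85% under DOX. Actin control probes at the 3′ end of the mRNA gave 1.14 to 1.24 times the signal of those at the 5′ end under saline, and 0.914 to 1.18 times under DOX, a ratio that tracks RNA breakdown. The part of the cell markers and of the actin ratio in the members' changes was not tested.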

How the data were processed

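Per the submitters' processing notes, the deposited values are 1 linear intensity per probe set and array, made with GCOS 1.4 (Affymetrix). The sources used here do not give the signal algorithm or scaling target. Per the labels' protocols, cRNA was made from 2 µg of total RNA. The 64 control probe sets were left out. Trimmed means of the deposited intensity (2% off each end) lay between 171 and 185, with the highest 8.06% above the lowest. This exceeded a limit of 5%, so the arrays were quantile-normalized and taken as log2(intensity + 16), on which scale changes of dim probe sets are understated.

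A probe set was kept where it reached the array median on 2 or more arrays, which left 24751. Tests used limma 3.58.1 in R 4.3.3 (4 group means, eBayes with a mean-variance trend, residual df 4, prior df 4.66), with two-sided p-values and Benjamini-Hochberg adjustment over all tested probe sets of each of 7 comparisons. Each gene was represented by its tested probe set of highest mean. With 2 arrays against 2 the smallest exact p is 0.333, so no exact test was made. The p-values measure the spread between the samples labelled as biological replicates. The script was tested on simulated arrays.

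Same-numbered replicates deviated together: the correlation of their deviations from the group means was 0.36 to 0.542 over the 6 pairs of groups. The replicate number, taken from the labels, was therefore also fitted as a block. Members whose call it changed are named, only some of them with that value. It is not given for genes of the other lists.

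All 51 member symbols matched RefSeq by Entrez number. In each comparison the text names the 10 largest rises and the 10 largest falls past the threshold, or the 3 members with the smallest p where none passed. It always gives the paralogs, their partners where tested, the stalk and Mdm2-binding proteins, Rps19bp1, Rps6 and Rpl13a, and of the other gene lists up to 4 members with the smallest p. Other genes named, among them those near the threshold, were chosen after their values were seen. The members, the gene lists and the tests were chosen with earlier results of these data known. Alternatives were the deposited scaling, median centring, other pseudocounts (4 and 64), other filters, no trend, only the compared groups, the mean of a gene's probe sets, probe sets without the suffix x or s, the core ribosomal proteins alone, the replicate block, and each array left out.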

Additional observations from a re-analysis of the deposited data

Results flagged for a closer look

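Rpl39l was the 1 member whose arrays lay apart in opposite directions in the genotypes. How many of all genes did so was not counted, so the pattern is given as a description only. After DOX Rpl39l had log2 -0.20 in MT+/+ (adjusted p 0.504) and +0.20 in MT-/- (adjusted p 0.451). Under saline its signals were 7.70 and 7.85 in MT+/+ and 7.43 and 7.42 in MT-/-, and under DOX 7.46 and 7.69, and 7.55 and 7.71. The difference itself was tested as an interaction and did not pass (+0.41, limma adjusted p 1, unadjusted p 0.0558).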

How the results depend on the processing

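The count of members called for DOX averaged (9) was 5 without the mean-variance trend, 20 with the replicate block and 5 to 11 with 1 array left out, falling to 5 without MT-/- saline 1 or MT-/- saline 2. In MT+/+ (0) it was 1 under the deposited scaling, median centring or the mean of probe sets, 2 with the stricter filter, 10 with the block and 0 to 2 with 1 array left out. In MT-/- (3) it was 1 without the trend, 8 with the block and 0 to 2 with 1 array left out. For genotype averaged (0) it was 1 with the block, and the block changed no other call than those given with the results. Without the filter on low signal, 6 of 51 members were called for DOX averaged. Except for the block, the shares of all genes called under these settings are not given here. A changed count can therefore not be set against the change over all genes. The members' median was 0.023 to 0.139 in MT-/- and -0.098 to -0.012 for the interaction with 1 array left out. With median centring it was 0.114 for genotype averaged (0.055 over all genes) and 0.075 for genotype under DOX (0.030 over all genes). With 1 array left out the median was 0.073 to 0.123 for DOX averaged, 0.020 to 0.096 for genotype averaged and -0.024 to 0.069 for genotype under DOX. Uncalled values near 0 changed sign with 1 array left out: Rplp2 ran from -0.06 to 0.11, Rpl39l from -0.06 to 0.06, Rps4l from -0.17 to 0.04, Rpl22 from -0.02 to 0.03 and Rpl39 from -0.23 to 0.04. Rpl39l was 0.00 with a pseudocount of 64. Rpl10a, Rpl3l and Rps9 kept their averaged call in all 8 of these fits. The cause of the changes was not tested. Precision is limited by 2 arrays per group.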
